A study of Mus musculus with 9 samples.

Results

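The genes of fatty acid oxidation in mitochondria and peroxisomes were examined in epididymal fat of Tm5NM1 transgenic and wild-type mice. Membership followed gene symbols alone: 35 genes of the pathway were listed, of 19057 named on the array, and every probe carrying one of these symbols in the platform annotation was taken, 79 probes of the 45281 on the array. All 35 genes had at least 1 tested probe, out of 12171 named genes tested, and 65 of the 79 probes were tested. Of the 35 genes, 22 act in mitochondria, 10 belong to peroxisomes, 2 encode nuclear receptors (Ppara and Ppard) and 1, Acot1, encodes a cytosolic enzyme. The study hybridised total RNA of the epididymal fat pad to Illumina bead arrays, 1 array per mouse. All 9 mice were FVB/N, 3 months old and fasted for 14 to 16 h. In 5 of them, labelled tg/tg, a transgene for Tm5NM1 was present; this cytoskeletal tropomyosin, a short product of the Tpm3 gene, lies along actin filaments. The other 4 were wild type, labelled wt/wt. The sources used here do not name the promoter of the transgene or the number of founder lines. Values for single mice are given in the order 165, 152, 147, 163 and 164 for transgenic mice and 141, 142, 143 and 159 for wild-type mice.

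Fat cells release fatty acids during a fast and also burn some of them. Long-chain fatty acids enter mitochondria as carnitine esters, made by carnitine palmitoyltransferase 1 at the outer membrane and turned back into acyl-CoA by carnitine palmitoyltransferase 2 at the inner membrane. Each turn of the beta-oxidation spiral then takes an acyl-CoA dehydrogenase, a hydratase, a hydroxyacyl-CoA dehydrogenase and a thiolase, and the electron transfer flavoprotein carries electrons from the first step to the respiratory chain. Peroxisomes run a parallel spiral for very long and branched chains, in which the first enzyme is an oxidase that makes hydrogen peroxide, removed by catalase. The receptors PPAR alpha and PPAR delta bind fatty acids and switch on many of these genes in fasting.

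The array medians lay between 169 and 192 units of deposited intensity in the 5 transgenic mice and wild-type mouse 141, and between 142 and 147 in wild-type mice 142, 143 and 159. This brightness therefore largely coincided with genotype. Levels below are log2 normalized intensities, and a difference is transgenic minus wild type; levels of different probes are not comparable with each other. A threshold of 0.05 was set on limma p-values after Benjamini-Hochberg adjustment over all 23354 tested probes. The tissue label was checked against markers: all 9 adipocyte markers were tested, with a summed linear level of 132320 to 203141 in transgenic mice and 155953 to 207958 in wild-type mice. Of the brown adipocyte markers, Ucp1, Dio2, Elovl3 and Zic1 were detected on too few arrays to be tested. Epididymis markers summed to 274 to 159054 in transgenic mice, with mouse 152 at the top, and to 83984 to 301633 in wild-type mice. Of 9 tested, 9 were lower in transgenic mice and 3 passed the threshold, against 0.107% of all named genes. Of the 3, Lcn9 was detected in 0 of 5 transgenic and 4 of 4 wild-type mice, and Lcn10 in 1 of 5 and 4 of 4. Defb48 was detected in 4 of 5 and 4 of 4. Lcn9 and Lcn10 thus reached the 4 arrays needed for testing only through wild-type mice, where they were high. Their calls are therefore not separate evidence. The same holds for the direction of Rnase10, Lcn8, Lcn5, Gpx5 and Spink8, which did not pass, and so for most of the 9 lower markers.

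None of the 35 member genes passed the test between genotypes, in either direction (limma, Benjamini-Hochberg adjustment). Over all named genes 0.107% passed, so that 0 of 35 is close to this background. The same held for single probes, with 0 of the 65 member probes called against 0.0685% of all tested probes. The lowest adjusted p of a member gene was 0.525, for Cpt1a, and of a member probe 0.422, for a dim Acaa2 probe. At an unadjusted p under 0.05, 1 of the 35 member genes (Cpt1a) was counted, where the share of all named genes was 9.05%, and 5 of 65 member probes (7.69%), where the share of all probes was 9.45%. The 2 genotypes overlapped at all 35 genes and at all 65 probes. They did not overlap at 3.33% of all named genes and 3.21% of all probes. With so few members, 0 of 35 and 0 of 65 lie close to these shares.

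The mitochondrial genes lay close to 0. In transgenic fat 9 of the 22 genes were higher and 13 lower; their log2 fold changes had a median of -0.01, against 0.04 over all named genes tested, where 56.5% were higher. Single genes ran from -0.25 (Acot2) to 0.45 (Cpt1a). The intervals were narrow for many: in 14 of the 22 mitochondrial genes, and in 44.1% of all named genes, the 95% interval lay wholly within 1.5-fold either way (0.585 on the log2 scale). The 10 peroxisomal genes were higher at 3 and lower at 7, with a median of -0.11 and a range from -0.94 (Ehhadh) to 0.23 (Abcd2), and 5 of the 10 had an interval within 1.5-fold. These counts moved in both directions with single mice. Without transgenic mouse 152 the mitochondrial genes were higher at 17 and lower at 5 (median 0.08), and the peroxisomal genes higher at 6 and lower at 4 (median 0.03), with no gene called in either set. Without wild-type mouse 141 the mitochondrial genes were higher at 14 and lower at 8 (median 0.03). They were higher at 6 and lower at 16 without transgenic mouse 165 (median -0.08), and likewise without wild-type mouse 159 (median -0.07). On the 6 brighter arrays, with 1 wild-type mouse, they were higher at 5 and lower at 17 (median -0.16). In bulk tissue, fewer fat cells and less of a transcript per cell cannot be told apart.

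**Figure D1:**
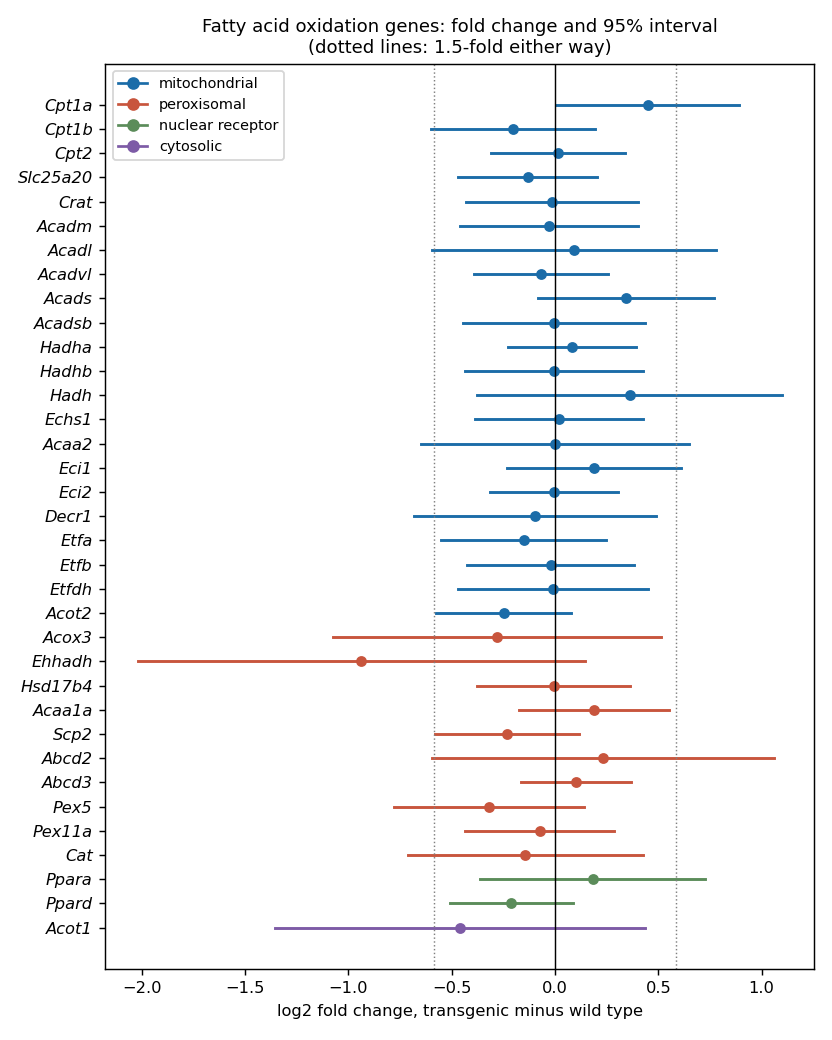
Log2 fold change (transgenic minus wild type; points) and limma's 95% interval (lines) for the brightest tested probe of each of the 35 genes, coloured by compartment, with dotted lines at 1.5-fold. Most mitochondrial genes sit near 0, Cpt1a is at 0.45, and Ehhadh has the lowest value, -0.94, with the widest interval.

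The genes of mitochondrial entry come first in the pathway. Cpt1a encodes the liver form of carnitine palmitoyltransferase 1, the step that limits entry, and gave 5.89, 5.59, 5.99, 5.99 and 5.64 in transgenic mice, against 4.91, 5.67, 5.76 and 5.16 in wild-type mice. It was dim: the probe was detected in 4 of 5 transgenic and in 2 of 4 wild-type mice. The means were 5.82 ± 0.19 (SD, n = 5) in transgenic and 5.37 ± 0.41 (SD, n = 4) in wild-type fat, a log2 fold change of 0.45 with a 95% interval of 0.01 to 0.89 (limma adjusted p = 0.525). Wild-type mice 141 and 159 were low, while 142 and 143 lay inside the transgenic range. The difference was 0.29 without mouse 141 and ran from 0.29 to 0.58 with a mouse left out. Without normalization between arrays Cpt1a was the only member gene to pass (log2 fold change 0.77, limma adjusted p = 0.0448), but there the median of all named genes was itself 0.42 higher in transgenic mice. Cpt1b, the muscle form of the same enzyme and also present in brown fat, read 7.58, 6.97, 7.06, 7.15 and 7.60 in transgenic mice, against 7.49, 7.33, 7.31 and 7.76 in wild-type mice. The groups overlapped, with a log2 fold change of -0.20 and a 95% interval of -0.60 to 0.20 (limma adjusted p = 0.759). The fold change was -0.11 without mouse 159 and -0.13 without mouse 152, and ran from -0.28 to -0.11 with a mouse left out.

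The window around the Cpt1a start site is shown because Cpt1a had the lowest p of the member genes. In RefSeq on GRCm38.p6 it spans chr19:3323051-3323350 on the + strand, 250 bases before to 50 after the start. Capitals mark its 1 match to AGGTCA, the half-site bound by PPAR and related receptors, here on the opposite strand.
Cpt1a: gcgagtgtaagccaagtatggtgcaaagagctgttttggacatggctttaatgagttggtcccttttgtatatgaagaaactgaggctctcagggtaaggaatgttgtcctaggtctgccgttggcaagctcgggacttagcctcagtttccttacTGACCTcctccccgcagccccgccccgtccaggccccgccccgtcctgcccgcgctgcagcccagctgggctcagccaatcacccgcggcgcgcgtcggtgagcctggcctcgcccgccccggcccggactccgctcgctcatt

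Cpt2, which rebuilds acyl-CoA inside the mitochondrion, had nearly equal means, with 13.33, 12.86, 13.41, 13.11 and 13.24 in transgenic mice, against 13.30, 13.28, 13.10 and 13.03 in wild-type mice. The log2 fold change was 0.01 with an interval of -0.31 to 0.34, and its other 2 tested probes differed by 0.07 and -0.09. The carrier Slc25a20, which swaps acylcarnitine for carnitine across the inner membrane, differed by -0.13 (-0.47 to 0.21; limma adjusted p = 0.825). Crat, an acetyltransferase that makes acetylcarnitine from acetyl-CoA, differed by -0.01 at its brightest probe (-0.43 to 0.40). At that probe transgenic mouse 152 stood apart, with 10.33 against 11.05 to 11.23 in the other transgenic mice and 10.93 to 11.05 in wild-type mice. The dimmest Crat probe read 7.47, 5.94, 7.05, 6.69 and 6.69 in transgenic mice, against 7.61, 7.68, 7.37 and 7.16 in wild-type mice, and differed by -0.69 (unadjusted p = 0.0304, limma adjusted p = 0.489). The 3 Crat probes therefore gave differences of unequal size, and none passed.

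The acyl-CoA dehydrogenases carry out the first step of the spiral, each for its own chain lengths. Acadm, for medium chains, read 15.06, 14.49, 14.86, 14.96 and 14.81 in transgenic mice, against 15.06, 15.29, 14.64 and 14.48 in wild-type mice. The ranges overlapped, and the difference was -0.03 (-0.46 to 0.40). Acadvl, for very long chains, differed by -0.07 (-0.39 to 0.26) at its brightest probe and by 0.19 at the other. Acadl, for long chains, was more variable, from 9.99 in mouse 152 to 11.37 in mouse 165 among transgenic mice and from 9.97 to 11.23 among wild-type mice, with a difference of 0.09 (-0.59 to 0.78). Acads, for short chains, gave 10.77, 10.03, 10.69, 10.62 and 10.90 in transgenic mice, against 10.32, 10.39, 10.38 and 9.95 in wild-type mice, a log2 fold change of 0.34 with a 95% interval of -0.08 to 0.77 (limma adjusted p = 0.608). All transgenic mice but mouse 152 were above every wild-type mouse at this probe; the other Acads probe differed by -0.23, in the opposite direction. Acadsb, for short branched chains, differed by -0.01 (-0.45 to 0.43).

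The middle and last steps for long chains are held by the trifunctional protein, whose alpha subunit is encoded by Hadha and beta subunit by Hadhb. Hadha read 9.65, 9.17, 9.49, 9.31 and 9.41 in transgenic mice, against 9.12, 9.38, 9.35 and 9.45 in wild-type mice, and Hadhb 13.80, 12.85, 13.52, 13.53 and 13.64 in transgenic mice, against 13.70, 13.43, 13.34 and 13.42 in wild-type mice. Neither gene separated the genotypes: the differences were 0.08 (-0.23 to 0.39) and -0.01 (-0.44 to 0.43). The pair is divergently transcribed from neighbouring start sites, 273 bases apart in RefSeq, so that their 300-base windows share 228 bases. The Hadha window is shown because it covers most of the window of its partner; it spans chr5:30154931-30155230 on the - strand of GRCm38.p6 and holds no AGGTCA on either strand.
Hadha: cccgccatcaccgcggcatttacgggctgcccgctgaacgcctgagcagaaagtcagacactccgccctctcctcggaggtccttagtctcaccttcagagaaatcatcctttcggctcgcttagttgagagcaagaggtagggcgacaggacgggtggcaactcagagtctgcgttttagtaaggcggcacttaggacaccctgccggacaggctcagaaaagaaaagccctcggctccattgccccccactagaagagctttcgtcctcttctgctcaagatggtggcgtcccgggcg

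For shorter chains the steps are separate enzymes. Echs1, the short-chain hydratase, differed by 0.02 (-0.39 to 0.43). Hadh, the short-chain hydroxyacyl-CoA dehydrogenase, varied widely between mice, with 9.09, 7.76, 8.44, 8.10 and 8.50 in transgenic mice, against 8.75, 8.27, 7.77 and 7.27 in wild-type mice. Mouse 165 was the highest and wild-type mouse 159 the lowest, and the difference was 0.36 (-0.38 to 1.10; limma adjusted p = 0.767); without mouse 159 it was 0.11, and without wild-type mouse 141 it was 0.61. The isomerases Eci1 and Eci2 and the reductase Decr1 let unsaturated chains enter the spiral, and differed by 0.19, -0.01 and -0.10 (limma adjusted p = 0.794, 0.996 and 0.933). The Eci1 difference was 0.06 without mouse 159 and 0.08 without mouse 165, and ran from 0.06 to 0.28 with a mouse left out.

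Acaa2, a mitochondrial thiolase of the last step, had 4 tested probes that did not give 1 answer. The brightest read 11.79, 11.37, 11.18, 11.09 and 11.14 in transgenic mice, against 11.57, 11.93, 11.37 and 10.38 in wild-type mice, a difference of 0.00 (-0.65 to 0.65), with wild-type mouse 159 the lowest of all 9. The next 2 probes differed by 0.25 and 0.15. The dimmest read 9.92, 9.65, 9.37, 9.48 and 9.66 in transgenic mice, against 9.69, 8.74, 8.62 and 8.65 in wild-type mice, a difference of 0.69 with an interval of 0.17 to 1.21 (unadjusted p = 0.0138, limma adjusted p = 0.422). At this probe wild-type mouse 141 lay inside the transgenic range and mice 142, 143 and 159 lay below it, which is also how the array medians were split. The adipocyte marker Fabp4, a fatty acid carrier named here after its values were seen, had the same split, with 10.39, 9.25, 10.13, 9.92 and 10.24 in transgenic mice, against 9.93, 8.14, 8.27 and 8.51 in wild-type mice and a difference of 1.27 (limma adjusted p = 0.369). The part of array brightness in these 2 differences was not tested.

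**Figure D2:**
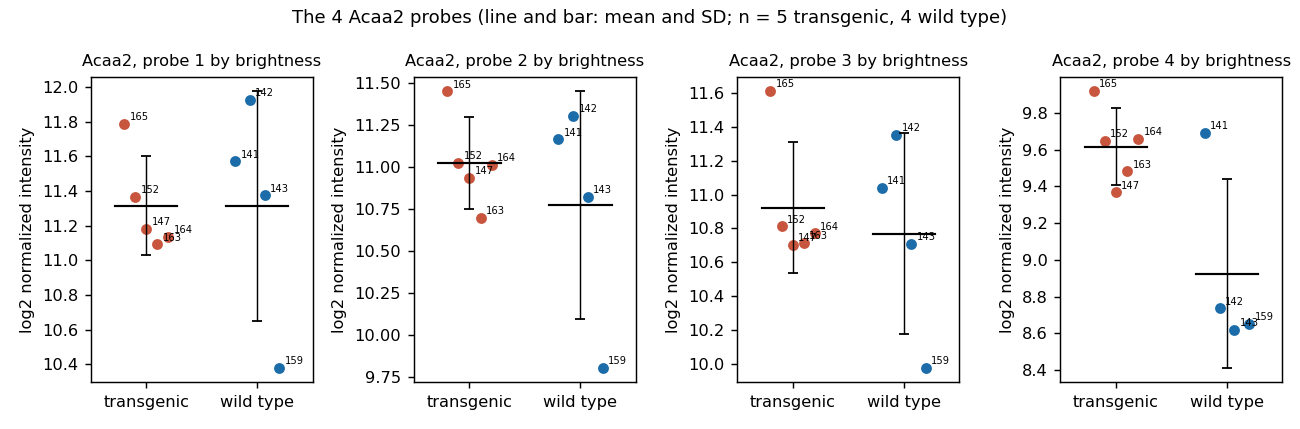
Log2 normalized intensity of the 4 tested Acaa2 probes in each mouse (numbered points), with the mean (line) and SD (bar) of 5 transgenic and 4 wild-type mice. Wild-type mouse 159 is lowest at the 3 brighter probes, while at the dimmest probe mice 142, 143 and 159 (8.62 to 8.74) lie below mouse 141 (9.69) and all transgenic mice.

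The electron transfer flavoprotein and its oxidoreductase, encoded by Etfa, Etfb and Etfdh, pass electrons from every acyl-CoA dehydrogenase to the respiratory chain. Etfa differed by -0.15 (-0.55 to 0.25), with -0.07 and -0.07 at its other probes. At its brightest probe the difference was -0.03 without wild-type mouse 142, and ran from -0.25 to -0.03 with a mouse left out. Etfb read 13.43, 12.97, 13.38, 13.33 and 13.43 in transgenic mice, against 13.22, 13.33, 13.78 and 12.97 in wild-type mice, a difference of -0.02 (-0.42 to 0.38). The transgenic range lay inside the wild-type one, with mouse 152 the low one among transgenic mice. Etfdh differed by -0.01 (-0.47 to 0.45), and its dimmer tested probe by 0.26. Acot2, a mitochondrial thioesterase that frees fatty acids from CoA, read 8.77, 8.40, 8.77, 8.38 and 8.29 in transgenic mice, against 8.87, 8.70, 8.67 and 8.85 in wild-type mice; this was the lowest mitochondrial difference, -0.25 (-0.58 to 0.08; limma adjusted p = 0.626), and mice 165 and 147 lay inside the wild-type range.

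Some mice were high or low across most mitochondrial genes, in both genotypes. Transgenic mouse 165 was above the 9-mouse mean at 20 of the 22 genes and was the highest of all mice at 9, or 40.9%, where over all named genes it was the highest at 17.9%. Transgenic mouse 152 was above the mean at 1 of 22 and was the lowest mouse at 11, or 50%, against 17.8% over all named genes. Wild-type mouse 159 was the lowest at 8, or 36.4%, against 21.2%. The remaining lowest values belonged to mice 164 and 141. The median deviation from the gene mean was 0.28 in mouse 165, -0.36 in mouse 152 and -0.18 in mouse 159, and between -0.06 and 0.11 in the others. The peroxisomal genes shared the low values of mouse 152, the lowest mouse at 6 of 10 with a median deviation of -0.36, but not those of mouse 159, whose median deviation was 0.09. The summed adipocyte markers ran alongside in mouse 152, at 132320 the lowest of the 9 mice, and in mouse 165, at 203141 the second highest, but not in mouse 159, at 185662. Of the adipocyte markers 5 were higher and 4 lower in transgenic mice, with 0 called. Mouse 152 also had the lowest sum of the tested brown adipocyte markers, 1756 against 3439 in mouse 165. Cidea, Cox7a1, Cox8b and Cpt1b, itself a member, were lowest in mouse 152, while Ppargc1a was highest there (9.14) and lowest in mouse 165 (7.94). The skeletal muscle sum of mouse 152 was also lowest (602, against 1002 in mouse 165), but its tested markers were split. Acta1 and Actn3 were lower in mouse 152 (8.12 and 5.87) than in mouse 165 (9.41 and 6.35). Tnni2 and Mylpf were higher in mouse 152 (7.52 and 6.33) than in mouse 165 (7.33 and 6.30). Ckm, Myh4, Myh1 and Tnnt3 were detected on too few arrays to be tested. The mesothelial sum of mouse 152 was the highest (16170, against 8908), and so were its Krt8, Krt18 and Krt19 (13.44, 11.36 and 10.43). Msln, Upk3b, Upk1b and Lrrn4 were lower in mouse 152 (5.94, 9.40, 7.88 and 6.74) than in mouse 165 (9.71, 12.02, 10.70 and 9.04). Macrophage markers summed to 11945 in mouse 152, the lowest of the 9 mice, and to 26711 in mouse 165, the highest. Endothelial markers summed to 16987 in mouse 152, to 29190 to 31454 in the other transgenic mice (29811 in mouse 165), and to 16832 to 23655 in wild-type mice. Between genotypes, all 6 tested endothelial markers were higher in transgenic mice (median log2 fold change 0.42). All 7 tested mesothelial markers were lower (median -0.89). Macrophage markers were higher at 3 and lower at 2, brown adipocyte markers at 4 and 1, and skeletal muscle markers at 2 and 2. In these lists 0 were called, against 0.107% of all named genes. The part of cell content in these values was not tested.

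**Figure D3:**
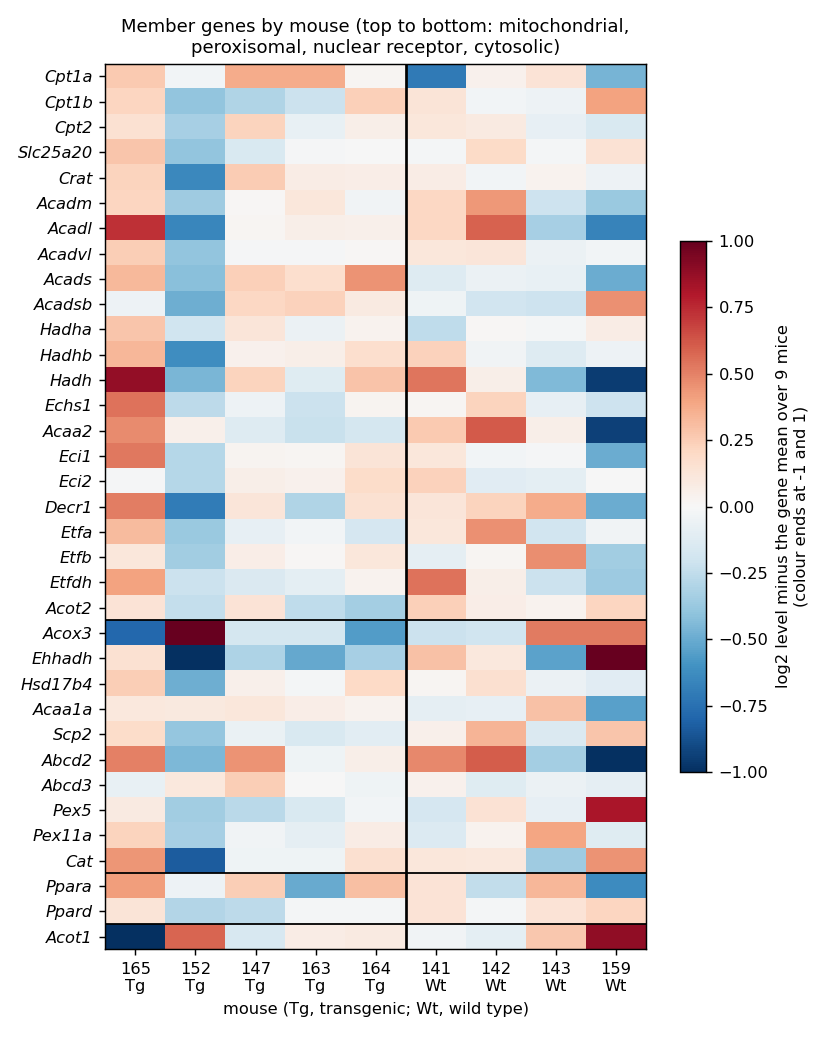
Each cell is the log2 level of a gene's brightest tested probe in a mouse minus that gene's mean over the 9 mice (colour scale, ending at -1 and 1); transgenic mice are left of the vertical line and wild-type mice right of it. Column 165 is mostly above the mean and column 152 mostly below it in the mitochondrial block, and both belong to transgenic mice; column 159 is the lowest at 8 mitochondrial genes but high at Ehhadh, Pex5 and Acot1.

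In the peroxisomal spiral, Acox3 is an oxidase of branched chains, Ehhadh and Hsd17b4 encode the 2 bifunctional hydratase-dehydrogenases, and Acaa1a and Scp2 thiolases. Ehhadh gave the largest difference of all 35 members. It read 9.36, 8.14, 8.90, 8.70 and 8.88 in transgenic mice, against 9.50, 9.32, 8.68 and 11.44 in wild-type mice. Wild-type mouse 159 stood high, and the other 3 wild-type mice lay within or just above the transgenic range. The means were 8.80 ± 0.44 (SD, n = 5) in transgenic and 9.73 ± 1.19 (SD, n = 4) in wild-type fat, a log2 fold change of -0.94 with a 95% interval of -2.02 to 0.14 (limma adjusted p = 0.581). Without mouse 159 the difference was -0.37 (adjusted p = 0.748), and without mouse 159 and transgenic mouse 152 together it was -0.21. With a single mouse left out it ran from -1.29 to -0.37. The within-group SD of Ehhadh was larger than that of 94.8% of named genes. The other bifunctional enzyme, Hsd17b4, read 13.81, 13.08, 13.62, 13.55 and 13.76 in transgenic mice, against 13.59, 13.73, 13.51 and 13.45 in wild-type mice and differed by -0.01 (-0.38 to 0.36).

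The Ehhadh window is shown because this gene had the largest difference. It spans chr16:21787785-21788084 on the - strand of GRCm38.p6 and holds no AGGTCA on either strand.
Ehhadh: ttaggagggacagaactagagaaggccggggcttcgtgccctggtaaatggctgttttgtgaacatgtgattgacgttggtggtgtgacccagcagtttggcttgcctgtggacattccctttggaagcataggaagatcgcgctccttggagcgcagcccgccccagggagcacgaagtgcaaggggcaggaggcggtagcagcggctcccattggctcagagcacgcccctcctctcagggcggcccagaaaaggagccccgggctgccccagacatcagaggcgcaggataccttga

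Acox3 read 10.31, 12.17, 10.92, 10.92 and 10.54 in transgenic mice, against 10.88, 10.89, 11.61 and 11.62 in wild-type mice, a log2 fold change of -0.28 with a 95% interval of -1.08 to 0.51 (limma adjusted p = 0.843). Its highest mouse was transgenic mouse 152, the reverse of what that mouse showed at most members, and mouse 165 was the lowest; without mouse 152 the difference was -0.58, and without mouse 165 it was -0.12. Mouse 152 also had the highest epididymis marker sum of the transgenic mice, 159054, while wild-type mice 141 and 143, with sums of 258571 and 301633, read 10.88 and 11.61 at Acox3; the part of epididymal RNA in the Acox3 signal was not tested. Acaa1a varied little among transgenic mice, at 13.01 to 13.08, against 12.42 to 13.27 in wild-type mice, and differed by 0.19 (-0.18 to 0.55). That difference was 0.04 without wild-type mouse 159, the lowest, and 0.32 without wild-type mouse 143, the highest. Scp2, a thiolase and lipid carrier made from 1 gene, differed by -0.23 (-0.58 to 0.12) at its brightest probe and by 0.01 at the next. The dimmest tested Scp2 probe read 11.70, 11.11, 11.13, 11.30 and 11.41 in transgenic mice, against 11.48, 12.12, 11.35 and 13.13 in wild-type mice, a difference of -0.69 (unadjusted p = 0.0649, limma adjusted p = 0.554) with mouse 159 again the highest.

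The transporters Abcd2 and Abcd3 bring acyl-CoA into peroxisomes. Abcd2 read 12.24, 11.28, 12.18, 11.69 and 11.79 in transgenic mice, against 12.21, 12.34, 11.40 and 10.47 in wild-type mice, a log2 fold change of 0.23 with a 95% interval of -0.60 to 1.06 (limma adjusted p = 0.879). Wild-type mice spread over a wider range than transgenic mice, with mouse 159 the lowest, and the difference was -0.15 without mouse 159 and 0.48 without mouse 142. Its other probe differed by 0.47. At its brightest probe Abcd3 had a within-group SD above that of only 3.72% of named genes, and differed by 0.10 (-0.16 to 0.37). The other Abcd3 probes were less steady, with SDs of 0.13 to 0.31 in transgenic and 0.29 to 0.34 in wild-type mice. They differed by -0.24, 0.04 and 0.07.

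Pex5 is the receptor that carries enzymes into the peroxisome, and Pex11a promotes the division of the organelle. At Pex5 the 3 tested probes were all lower in transgenic mice. The brightest read 11.13, 10.69, 10.77, 10.89 and 11.01 in transgenic mice, against 10.88, 11.18, 10.96 and 11.85 in wild-type mice, a log2 fold change of -0.32 with a 95% interval of -0.78 to 0.14 (limma adjusted p = 0.652). The second read 10.63, 10.08, 10.31, 10.47 and 10.16 in transgenic mice, against 10.44, 10.98, 10.51 and 11.37 in wild-type mice, a difference of -0.50 with an unadjusted p of 0.042 (limma adjusted p = 0.514), and the dimmest differed by -0.23. Mouse 159 was the highest at all 3 probes, and without it the brightest differed by -0.11. With a mouse left out the brightest ran from -0.44 to -0.11. Pex11a differed by -0.07 (-0.43 to 0.29) and by -0.23, -0.13 and -0.06 at its other 3 probes. Cat, which encodes catalase, read 13.34, 12.06, 12.85, 12.85 and 13.05 in transgenic mice, against 13.01, 12.999, 12.54 and 13.34 in wild-type mice, a difference of -0.14 (-0.71 to 0.43), with mouse 152 the lowest.

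Acot1, a cytosolic thioesterase known as a target of PPAR alpha in liver and heart, was lower in transgenic mice at both tested probes without passing. The brighter read 10.55, 12.73, 11.998, 12.23 and 12.25 in transgenic mice, against 12.12, 12.06, 12.43 and 13.05 in wild-type mice, a log2 fold change of -0.46 with a 95% interval of -1.36 to 0.43 (limma adjusted p = 0.753). Transgenic mouse 165 was far below the rest, and without it the difference was -0.11. Without wild-type mouse 159 it was -0.25, and it ran from -0.66 to -0.11 with a mouse left out. The dimmer read 7.78, 9.86, 9.002, 9.15 and 8.92 in transgenic mice, against 9.34, 9.91, 9.84 and 10.25 in wild-type mice, a difference of -0.89 with an unadjusted p of 0.0328 (limma adjusted p = 0.496). Here mouse 152 was the only transgenic mouse inside the wild-type range. Acot1 has close relatives in a cluster of thioesterase genes, and a probe may bind transcripts of more than 1 of them, so the assignment of these signals to Acot1 or Acot2 is uncertain. The Acot1 window, shown because both probes ran the same way, spans chr12:84009252-84009551 on the + strand of GRCm38.p6 and holds no AGGTCA on either strand.
Acot1: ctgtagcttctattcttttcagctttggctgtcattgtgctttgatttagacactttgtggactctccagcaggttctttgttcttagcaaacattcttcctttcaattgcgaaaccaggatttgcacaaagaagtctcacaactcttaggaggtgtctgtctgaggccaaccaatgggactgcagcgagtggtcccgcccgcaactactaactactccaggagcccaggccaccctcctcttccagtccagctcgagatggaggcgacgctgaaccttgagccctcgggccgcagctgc

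The receptors themselves did not separate the genotypes. Ppara, dim in fat, was detected in all 5 transgenic and in 3 of 4 wild-type mice, with 6.70, 6.24, 6.53, 5.78 and 6.58 in transgenic mice, against 6.42, 6.04, 6.62 and 5.65 in wild-type mice and a difference of 0.18 (-0.36 to 0.73; limma adjusted p = 0.852). Without wild-type mouse 159 the Ppara difference was 0.01, and without wild-type mouse 143 it was 0.33. Ppard read 10.93, 10.51, 10.54, 10.79 and 10.78 in transgenic mice, against 10.94, 10.78, 10.94 and 11.02 in wild-type mice, a difference of -0.21 (-0.51 to 0.09; limma adjusted p = 0.647). All intervals of the receptors include 0.

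RefSeq start-site windows were at hand for 29 of the 35 genes, 32 windows in all; Cpt1b, Crat, Acaa2, Decr1, Hsd17b4 and Abcd2 had none. AGGTCA was searched on both strands and was found in 6 of the 32 windows (18.8%), against 16.3% of the 32851 windows of all genes. The full receptor element, AGGTCANAGGTCA, was found in none of the 32 and in 0.0396% of all windows. The 6 genes with a half-site were Cpt1a (shown above), Acadm, Acadvl, Echs1, Scp2 and Cat. Their differences ran from -0.23 (Scp2) to 0.45 (Cpt1a), and a match is a description of the letters only. Each of the other 5 is shown in 30 bases of its gene's strand, with the match in capitals, because these are the member windows that hold it. On GRCm38.p6 they lie at chr3:153944864-153944893, chr11:70015498-70015527, chr7:140116487-140116516, chr4:108118639-108118668 and chr2:103485340-103485369, all on the - strand.
Acadm: gTGACCTtcgggctccggtgacactgggca
Acadvl: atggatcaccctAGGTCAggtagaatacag
Echs1: accagcccgctcAGGTCAcgggtccacccc
Scp2: gtctaacacagtAGGTCAaaagaacccata
Cat: tgtgactctcagAGGTCAgagaacaccagc

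Further genes of the pathway came from 3 lists. Of the other mitochondrial oxidation genes, 26 of 32 were tested, with 14 higher and 12 lower (median 0.04) and 0 called in either direction. The 3 with the lowest p were Acad12, an acyl-CoA dehydrogenase relative (log2 fold change 0.46, limma adjusted p = 0.488), Acot13, a thioesterase (0.32, limma adjusted p = 0.502), and Acsl3, an acyl-CoA synthetase (-0.44, limma adjusted p = 0.513). Acot13 read 12.76, 12.84, 12.73, 12.74 and 12.80 in transgenic mice, against 12.56, 12.19, 12.68 and 12.41 in wild-type mice, and every transgenic mouse was above every wild-type mouse. It was the only 1 of the 26 genes without overlap, where 3.33% of all named genes had none. Of the other peroxisomal genes, 31 of 42 were tested, 12 higher and 19 lower (median -0.13), again with 0 called in either direction. At an unadjusted p under 0.05 limma counted 5 of the 26 mitochondrial genes (19.2%; 3 higher, 2 lower) and 3 of the 31 peroxisomal genes (9.68%; 1 higher, 2 lower), where the share of all named genes was 9.05%.

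Of the 3 peroxisomal genes with the lowest p, 2 were thioesterase relatives of Acot1. Acot4 read 10.37, 10.11, 10.45, 9.60 and 9.92 in transgenic mice, against 10.53, 10.74, 10.58 and 11.25 in wild-type mice, a log2 fold change of -0.68 with a 95% interval of -1.16 to -0.20 (limma adjusted p = 0.401). Every transgenic mouse was below every wild-type mouse. This held for 1 of the 31 peroxisomal genes, where 3.33% of all named genes did not overlap in either direction. Acot3 read 6.99, 7.83, 6.82, 6.38 and 5.96 in transgenic mice, against 6.89, 7.82, 8.57 and 9.59 in wild-type mice, a difference of -1.42 (-2.59 to -0.25; limma adjusted p = 0.456), and -0.96 without mouse 159. With a mouse left out the Acot3 difference ran from -1.86 to -0.96. The other was Pecr, a peroxisomal reductase, which differed by 0.58 (limma adjusted p = 0.451). Acot1, Acot3 and Acot4 are relatives whose probes may share targets, so their values do not count as separate results.

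Among regulators and PPAR target genes, 26 of 34 were tested, with 13 higher and 13 lower and 0 called in either direction (limma; 1 at an unadjusted p under 0.05). Ppargc1b, a coactivator of mitochondrial genes, read 10.77, 10.52, 10.70, 10.89 and 10.69 in transgenic mice, against 10.02, 10.28, 10.57 and 9.80 in wild-type mice, a log2 fold change of 0.55 with a 95% interval of 0.17 to 0.92 (limma adjusted p = 0.399). Only wild-type mouse 143 lay in the transgenic range. The mitochondrial deacetylase Sirt3 differed by 0.31 (limma adjusted p = 0.566). Pdk4, the kinase that turns off pyruvate use in fasting, gave 11.51, 10.23, 11.14, 12.39 and 12.47 in transgenic mice, against 11.87, 12.67, 11.54 and 14.12 in wild-type mice, a difference of -1.005 (-2.31 to 0.30; limma adjusted p = 0.622). Its highest value was in wild-type mouse 159, the mouse highest also at Ehhadh, Pex5 and Acot1, and without that mouse the Pdk4 difference was -0.48. That difference ran from -1.34 to -0.48 with a mouse left out. Ppargc1a, the coactivator best known for brown fat, differed by 0.05 and was named after its values were seen.

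**Figure D4:**
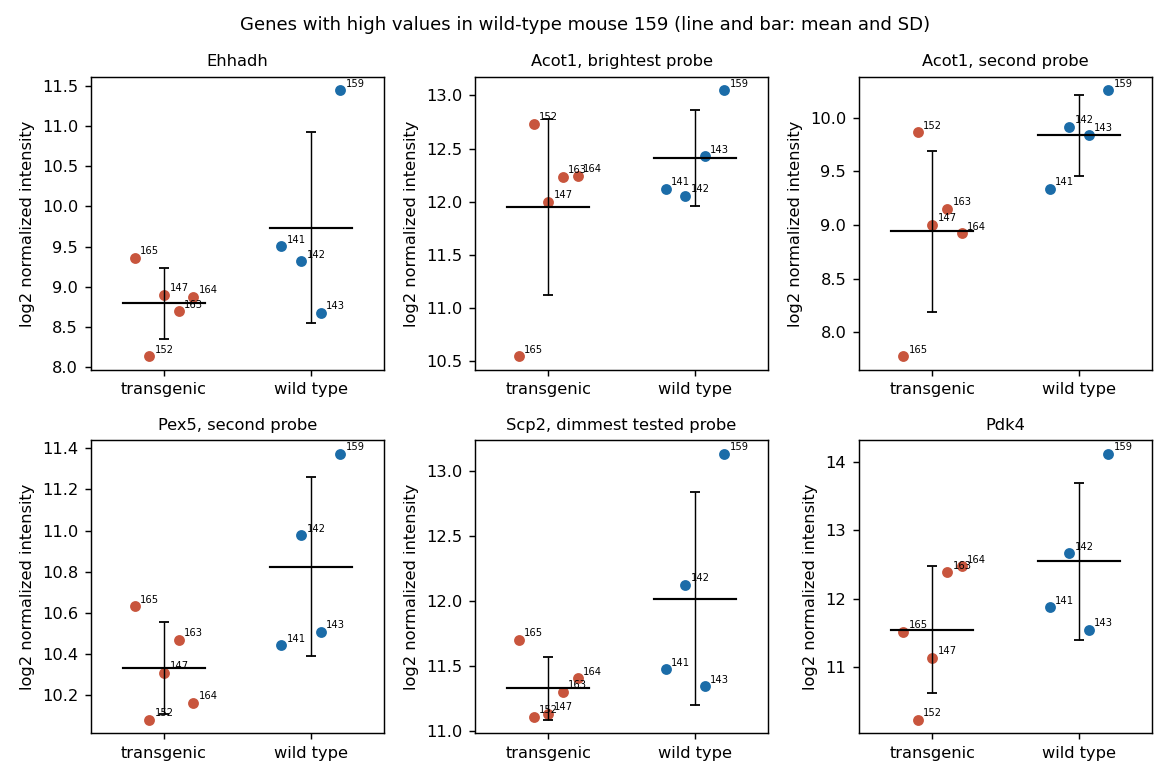
Log2 normalized intensity in each mouse (numbered points) with mean (line) and SD (bar) of 5 transgenic and 4 wild-type mice, for 6 probes chosen after their values were seen. Wild-type mouse 159 is the highest of all 9 mice in every panel, at 11.44 for Ehhadh and 14.12 for Pdk4, and transgenic mouse 165 is the lowest at both Acot1 probes.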

How the data were processed

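RNA of 5 transgenic and 4 wild-type fat pads was measured on Illumina arrays, and the files held no sample column without a label. Per the labels' protocols, Trizol RNA was cleaned on columns and biotin-labelled. The authors deposited probe intensities on a linear scale in 2 tables, and detection p-values in 1 of them, per the file headers; the sources used here do not state a scanner or normalization. Those detection p-values stand in the table called non-normalized. They followed the order of the series matrix intensities, with at most 1 break per array, and broke 12137 to 12861 times on 8 of 9 arrays against the intensities of their own table. The series matrix was therefore used, and the other table was tried as an alternative. Intensities were corrected and quantile-normalized with neqc (limma 3.58.1, R 4.3.3; offset 16). The 23354 probes with a detection p under 0.05 in at least 4 mice were fitted with lmFit and eBayes without covariates. Tests were two-sided.

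A gene stands for its brightest kept probe. 34885 probes had 1 gene symbol, 18 had several and 10378 are not named here. All members were named; of other lists, the 3 genes with the lowest p. Members and lists were chosen with earlier results of these data known. The fit was tested on simulated data. Alternatives changed the background correction, offset, scaling, table, filter, array weights, prior, probe rule and mice used. Mice carry separate numbers, and the p-values set the genotype difference against the spread between mice within a genotype. The sources used here give no litter, cage or slide, so effects of these cannot be told apart from genotype. The number of arrays limits precision.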

Additional observations from a re-analysis of the deposited data

Results flagged for a closer look

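Each member gene was checked in each genotype for a mouse far from the others by Dixon's test at 95%, 70 checks in all, of which 3 passed, where chance gives about 1 in 20. Crat read 10.33 in transgenic mouse 152, against 11.05 in the nearest transgenic mouse. Etfb read 12.97 in the same mouse, against 13.33 in the nearest. Acads read 9.95 in wild-type mouse 159, against 10.32 in the nearest wild-type mouse. The causes were not tested.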

How the results depend on the processing

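No member gene was called in 20 of 21 alternatives; the exception, without normalization between arrays, called 1, Cpt1a, where the median of all named genes was 0.42 and the mitochondrial and peroxisomal medians were 0.35 (22 higher, 0 lower) and 0.24 (9 higher, 1 lower). Calls over all probes numbered 16, and 1332 (1283 higher, 49 lower) without normalization between arrays, 353 (170 higher, 183 lower) with array weights, 9 with no detection filter, 1 with probes detected on all 9 arrays, 39 (0 higher) on the 6 brighter arrays and 47 without mice 152 and 159; leaving out each mouse gave 9 to 50. The mitochondrial median ran from -0.081 to 0.077 and the peroxisomal median ran from -0.14 to 0.026 with a mouse left out. The last 2 settings were chosen after seeing the data; on the brighter arrays 1 wild-type mouse, 141, stands alone and is assumed to vary like the others. Of 922 pairs of a named gene and an alternative, 812 kept direction and side of the threshold and 4 passed it: Cpt1a, Acad12, Pecr and Ppargc1b without normalization between arrays. Direction turned somewhere for 29 genes. Without normalization between arrays the sign turned for Cpt1b (0.23), Slc25a20 (0.23), Crat (0.37), Acadm (0.27), Acadvl (0.29), Acadsb (0.35), Hadhb (0.30), Eci2 (0.35), Decr1 (0.35), Etfa (0.12), Etfb (0.28), Etfdh (0.36), Acot2 (0.18), Acox3 (0.080), Hsd17b4 (0.30), Scp2 (0.078), Pex5 (0.056), Pex11a (0.29), Cat (0.20) and Ppard (0.18). With 75th percentile scaling the sign turned for Cpt2 (-0.083), Echs1 (-0.039) and Acaa2 (-0.043). With array weights the sign turned for Crat (0.067), Acadl (-0.079), Acadsb (0.20), Echs1 (-0.085), Acaa2 (-0.33), Etfb (0.037), Hsd17b4 (0.024) and Abcd2 (-0.076). With the table called non-normalized the sign turned for Cpt2 (-0.045), Acadm (0.031), Eci2 (0.018), Etfdh (0.077) and Pex11a (0.042). Without background correction the sign turned for Acaa2 (-0.0041). With an offset of 50 the sign turned for Acaa2 (-0.0011). With the mean over probes the sign turned for Cpt2 (-0.0012), Acadvl (0.061), Etfdh (0.13) and Abcd3 (-0.0077). On the 6 brighter arrays the sign turned for Cpt2 (-0.11), Acadl (-0.17), Acadsb (0.040), Hadh (-0.37), Echs1 (-0.0078), Acaa2 (-0.26), Eci1 (-0.031), Etfb (0.082), Acox3 (0.090), Abcd2 (-0.38), Pex5 (0.022), Pex11a (0.10) and Ppara (-0.055). Without mice 152 and 159 the sign turned for Crat (0.13), Acadvl (0.00082), Acadsb (0.27), Hadhb (0.13), Acaa2 (-0.32), Eci2 (0.063), Hsd17b4 (0.075), Abcd2 (-0.0074) and Cat (0.17). With a mouse left out, the sign turned within these ranges: Cpt2 (-0.039 to 0.099), Crat (-0.079 to 0.15), Acadm (-0.16 to 0.11), Acadl (-0.11 to 0.31), Acadvl (-0.14 to 0.022), Acadsb (-0.076 to 0.14), Hadhb (-0.089 to 0.15), Echs1 (-0.11 to 0.098), Acaa2 (-0.31 to 0.21), Eci2 (-0.051 to 0.071), Decr1 (-0.28 to 0.066), Etfb (-0.14 to 0.13), Etfdh (-0.13 to 0.17), Hsd17b4 (-0.068 to 0.12), Abcd2 (-0.15 to 0.48), Pex11a (-0.14 to 0.043), Cat (-0.29 to 0.050). Why these values turned was not tested. No paired analysis was possible because the sources used here give no litter, cage or slide by which to pair mice. Dim probes, such as Cpt1a and Ppara, lie near background, which limits their precision.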
